A study of Mus musculus with 4 samples.

Results

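Antiviral interferon-stimulated genes are the genes that cells switch on when they sense interferon, and whose products detect viral nucleic acid or block the steps of viral replication. In this set 34 of them were picked by gene symbol, and all 34 were found among the 24015 symbols of the count tables. They were compared between 2 RNA-seq libraries of caNIK hematopoietic stem and progenitor cells (HSPC) and 2 of control HSPC, all from sorted mouse cells. In caNIK mice, Vav-iCre, a Cre recombinase active across blood cells, had removed the stop before a NIK transgene at the Rosa locus whose product TRAF3 cannot bind. Since that driver acts in the whole blood system, the mature immune cells of these animals carry active NIK as well as the HSPC. The sources used here do not say whether control animals carried the Cre or the unrecombined allele, nor which strain, age, sort markers or number of animals were used. The design text gives self-renewal of stem cells under active NIK as the interest of the study.

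Interferons bind receptors on the cell surface, whose kinases phosphorylate STAT proteins. STAT2 and IRF9 are parts of a factor that binds the interferon-stimulated response element (ISRE) in target promoters, whereas STAT pairs bind the gamma-activated sequence (GAS). NIK acts elsewhere, in non-canonical NF-kB signalling, where it leads to the processing of the Nfkb2 product and to nuclear RelB. Stem cells are known to hold some antiviral genes at a constant level without infection, and interferon is known to push quiescent stem cells into cycle.

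Gene counts summed to 18574452 and 21825077 in the caNIK libraries, against 18656529 and 23162766 in the control libraries. A chi-square test of the 2 libraries of a group over genes gave 45.0 per degree of freedom for caNIK and 24.7 for control, where sampling noise alone gives about 1. Separate animals behind the libraries are not stated in the labels. The p-values therefore cover only library-to-library spread, part of which may be technical. Map3k14, the gene of NIK, was measured in counts-per-million units (CPM, scaled between libraries by TMM) and stood at 178 and 192 CPM in caNIK HSPC, against 30.2 and 25.1 CPM in control HSPC, with 2.74 ± 0.17 as the log2 fold change and its SE (adjusted p = 0.00023, edgeR). Of 12 HSPC markers, 2 rose (Gata2 and Ly6a), 2 fell (Cd34 and Hlf) and 8 did not pass, with a median log2 fold change of -0.51. Cd34 stood at 143 and 84.1 CPM in caNIK against 793 and 642 CPM in control. Hlf had 49.0 and 22.8 CPM in caNIK against 303 and 245.5 CPM in control. Kit, which did not pass, stood at 558 and 506 CPM in caNIK and 610.3 and 613 CPM in control. Ly6a is itself known to respond to interferon.

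The antiviral genes were higher in caNIK HSPC with few exceptions. Of the 34 members, all of which passed the filter on low counts, 30 rose, and the 4 that did not pass were Ifit2, Trim25, Mx2 and Ifi27l2a. Over all 14191 tested genes 22% passed in either direction, 13.8% higher and 8.21% lower (edgeR quasi-likelihood test, Benjamini-Hochberg adjusted p under 0.05). None of the members fell; at an unadjusted p under 0.05 the count was 0 as well, and DESeq2 and limma-voom gave 0. The median log2 fold change was 1.66 over the members, against 0.0038 over all tested genes. At least 2-fold rises were found for 27 members, against 11.5% of all genes, and at least 4-fold rises for 11 members, against 8.02%. Both caNIK libraries lay above both control libraries in 31 members and in 33.3% of all tested genes. The 34 genes together made up 2954 ± 381 CPM in caNIK HSPC and 1145 ± 126 CPM in control HSPC (SD, n = 2), a ratio of 2.58.

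Without caNIK replicate 1 the count of risen members was 23, and 1 member, Ifit2, fell. It was 30 without caNIK replicate 2, 27 without control replicate 1 and 27 without control replicate 2. In these bulk libraries, more cells of a type and more RNA per cell cannot be told apart.

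**Figure D1:**
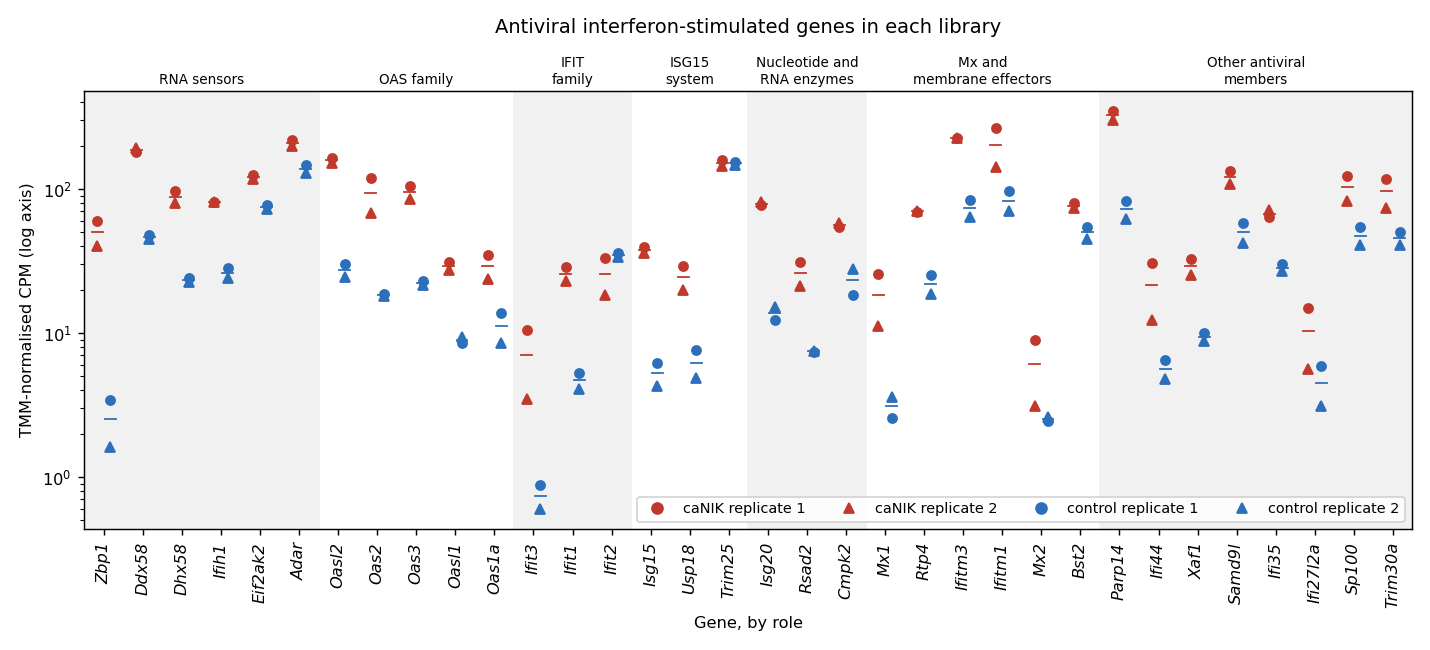
TMM-normalised CPM (log axis) of the 34 genes in each library, grouped by role, with caNIK in red and control in blue, replicate 1 as circles, replicate 2 as triangles and the group mean as a short line. Both red points stand above both blue points in 31 genes; in Trim25 and Ifi27l2a the groups overlap, and in Ifit2 both red points are below.

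The genes whose products sense or edit viral or misplaced nucleic acid inside the cell rose, all 6 of 6. Zbp1, which senses Z-form nucleic acid and can start necroptosis, had the highest fold change of the 34 members. Its level was 60.04 and 40.1 CPM in the caNIK libraries, against 3.42 and 1.62 CPM in the control libraries. The lowest caNIK value was 11.7 times the highest control value, and the log2 fold change was 4.32 ± 0.41 (edgeR adjusted p = 0.00097). Ddx58, which encodes the RNA sensor RIG-I, stood at 180.2 and 193 CPM in caNIK HSPC and 48.2 and 44.9 CPM in control HSPC. Its libraries were close within each group, and the log2 fold change was 2.0 ± 0.15 (adjusted p = 0.00045). Dhx58 encodes LGP2, a helicase of the same family that tunes RIG-I and MDA5. It had 96.7 and 80.4 CPM in caNIK against 24.3 and 22.7 CPM in control, a log2 fold change of 1.92 ± 0.17 (adjusted p = 0.0008). Ifih1, the gene of MDA5, which binds long double-stranded RNA, rose by 1.63 ± 0.17 on the log2 scale (adjusted p = 0.0012).

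Eif2ak2 and Adar had the smallest rises of the 6. Eif2ak2 encodes PKR, a kinase that halts translation on binding double-stranded RNA, and averaged 121 ± 6.70 CPM in caNIK and 75.0 ± 2.93 CPM in control (SD, n = 2). Adar, whose product edits double-stranded RNA and so hides it from these sensors, averaged 209 ± 15.3 CPM in caNIK and 137 ± 12.3 CPM in control. The rise was 0.69 ± 0.15 on the log2 scale for Eif2ak2 and 0.60 ± 0.15 for Adar (adjusted p = 0.018 and 0.032, edgeR). The Eif2ak2 call was lost without control replicate 1 (adjusted p = 0.094) and without control replicate 2 (adjusted p = 0.12). The Adar call was lost without caNIK replicate 1 (adjusted p = 0.055), without control replicate 1 (adjusted p = 0.12) and without control replicate 2 (adjusted p = 0.25). With all libraries it was lost under upper-quartile factors (adjusted p = 0.051) and library totals (adjusted p = 0.052).

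All 5 members of the 2′-5′ oligoadenylate synthetase (OAS) family rose, with a median log2 fold change of 2.09. Enzymes of the family make short adenylate chains on meeting double-stranded RNA, an activity that mouse OASL1 lacks. Oasl2 had 165 and 152 CPM in caNIK HSPC against 30.3 and 24.6 CPM in control HSPC, and its log2 fold change of 2.53 ± 0.18 had the smallest adjusted p among the 34 genes (0.00034, edgeR). Oas2 stood at 120.2 and 68.2 CPM in caNIK and at 18.8 and 18.1 CPM in control, so the caNIK libraries lay further apart than the control libraries. Oas3, the member that prefers long RNA, had 105 and 85.5 CPM in caNIK against 23.2 and 21.5 CPM in control. The log2 fold changes of Oas2 and Oas3 were 2.35 ± 0.28 and 2.09 ± 0.18 (adjusted p = 0.0023 and 0.00069). Oasl1, known in mouse to restrain the translation of Irf7, rose by 1.71 ± 0.23 (adjusted p = 0.0037). Oas1a rose by 1.40 ± 0.33 (adjusted p = 0.025), a call lost without caNIK replicate 1 (1.1, adjusted p = 0.079). Of the other OAS genes, Oas1b rose by 1.62 ± 0.31 (adjusted p = 0.013). Oas1g (1.87 ± 0.58, adjusted p = 0.063) and Oas1c (0.64 ± 0.30, adjusted p = 0.18) did not pass, and the rest had too few reads to be tested.

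The IFIT family split. IFIT1 binds the 5′ ends of foreign RNA and keeps it from being translated, and the genes of the family lie in 1 cluster on chromosome 19. Ifit3 had 10.6 and 3.47 CPM in caNIK HSPC against 0.882 and 0.597 CPM in control HSPC, with 197 and 72 reads in caNIK against 17 and 14 in control. Ifit1 had 28.6 and 22.9 CPM in caNIK against 5.29 and 4.09 CPM in control. In both genes the groups were apart, with a log2 fold change of 3.24 ± 0.69 for Ifit3 and 2.46 ± 0.29 for Ifit1 (edgeR adjusted p = 0.019 and 0.0021). Ifit2, the direct neighbour of Ifit3, showed no rise: it stood at 33.0 and 18.4 CPM in caNIK and 36.2 and 33.7 CPM in control. Both caNIK values were below both control values, with a log2 fold change of -0.44 ± 0.29 that did not pass (adjusted p = 0.33). Without caNIK replicate 1 Ifit2 fell (-0.92, adjusted p = 0.031), and the Ifit3 call was lost (2.23, adjusted p = 0.10). In control HSPC Ifit2 was the most abundant of the family for its length, at 9.15 CPM per kb of exon, above Ifit1 at 1.77 and Ifit3 at 0.424. In caNIK HSPC it was 6.74 CPM per kb, below Ifit1 at 9.70 and above Ifit3 at 4.03.

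Isg15 and the enzyme that removes its product from proteins rose together. ISG15 is a small ubiquitin-like protein that is attached to newly made proteins during infection. The gene had 39.4 and 35.9 CPM in caNIK HSPC, against 6.22 and 4.30 CPM in control HSPC, a log2 fold change of 2.84 ± 0.27 (edgeR adjusted p = 0.00095). Usp18, which strips ISG15 and also damps the type I interferon receptor, stood at 29.3 and 19.96 CPM in caNIK and 7.57 and 4.90 CPM in control (1.98 ± 0.34, adjusted p = 0.0089). Outside the 34 genes, all 3 genes for the ISG15 conjugation steps rose. Uba7, the activating enzyme, had 349 and 419.5 CPM in caNIK against 108 and 92.6 CPM in control, and Ube2l6, the conjugating enzyme, had 94.6 and 106 CPM in caNIK against 28.5 and 25.1 CPM in control. On the log2 scale Uba7 rose by 1.94 ± 0.17, Ube2l6 by 1.90 ± 0.17 and the ligase gene Herc6 by 1.30 ± 0.20 (adjusted p = 0.00075, 0.00071 and 0.0061).

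Trim25 did not share in this. It encodes the ubiquitin ligase known to act on RIG-I and ISG15, and stood at 159.5 and 145 CPM in caNIK and 155 and 146 CPM in control. The groups overlapped, with a log2 fold change of 0.02 ± 0.14 (edgeR adjusted p = 0.95), whose sign turned under other scalings and left-out libraries (-0.05 to 0.06). It was among the 4 members most abundant for their length in control HSPC.

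The promoters of these 2 groups of genes are shown because each holds members that rose beside 1 that did not pass. The groups of Mx2 and Ifi27l2a, given below, do so too, but no window was available for either gene. The promoters shown were thus picked by outcome. Sequences are those of RefSeq for GRCm38.p6, from 250 bases before to 50 bases after each annotated start, 5′ to 3′ on the gene's own strand. Capitals mark the ISRE core searched for, which is GAAA, any 2 bases and GAAA again, or on the other strand TTTC, any 2 bases and TTTC, with overlapping matches run together.
Isg15 (chr4:156200769-156201068, minus strand): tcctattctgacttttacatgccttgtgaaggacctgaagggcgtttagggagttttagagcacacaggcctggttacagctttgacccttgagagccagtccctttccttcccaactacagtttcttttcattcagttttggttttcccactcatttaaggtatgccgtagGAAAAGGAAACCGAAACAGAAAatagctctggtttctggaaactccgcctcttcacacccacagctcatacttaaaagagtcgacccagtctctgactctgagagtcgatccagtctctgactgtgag
Ifit1 (chr19:34640639-34640938, plus strand): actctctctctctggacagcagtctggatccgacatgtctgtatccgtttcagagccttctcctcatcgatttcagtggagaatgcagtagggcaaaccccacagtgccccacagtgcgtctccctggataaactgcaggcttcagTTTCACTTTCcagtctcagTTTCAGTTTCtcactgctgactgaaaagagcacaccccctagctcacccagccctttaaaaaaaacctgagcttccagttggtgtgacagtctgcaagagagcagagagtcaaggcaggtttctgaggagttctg
Ifit3 (chr19:34583279-34583578, plus strand): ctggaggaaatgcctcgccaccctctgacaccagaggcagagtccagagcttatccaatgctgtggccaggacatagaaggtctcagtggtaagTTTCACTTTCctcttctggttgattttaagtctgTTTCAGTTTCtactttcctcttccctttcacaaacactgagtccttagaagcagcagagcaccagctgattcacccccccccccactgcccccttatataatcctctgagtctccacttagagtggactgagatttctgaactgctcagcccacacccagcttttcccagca
Ifit2, upstream start (chr19:34550444-34550743, plus strand): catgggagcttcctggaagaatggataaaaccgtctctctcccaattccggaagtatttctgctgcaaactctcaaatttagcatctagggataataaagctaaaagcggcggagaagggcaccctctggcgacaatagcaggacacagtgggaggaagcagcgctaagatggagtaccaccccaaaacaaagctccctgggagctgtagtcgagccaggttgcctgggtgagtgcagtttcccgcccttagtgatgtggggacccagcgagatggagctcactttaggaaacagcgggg
Ifit2, downstream start (chr19:34550838-34551137, plus strand): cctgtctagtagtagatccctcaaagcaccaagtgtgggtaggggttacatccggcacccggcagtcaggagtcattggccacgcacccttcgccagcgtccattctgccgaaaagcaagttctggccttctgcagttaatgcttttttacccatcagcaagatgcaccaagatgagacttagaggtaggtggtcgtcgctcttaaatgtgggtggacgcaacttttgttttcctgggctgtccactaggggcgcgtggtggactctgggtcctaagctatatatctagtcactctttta
Trim25 (chr11:88999153-88999452, plus strand): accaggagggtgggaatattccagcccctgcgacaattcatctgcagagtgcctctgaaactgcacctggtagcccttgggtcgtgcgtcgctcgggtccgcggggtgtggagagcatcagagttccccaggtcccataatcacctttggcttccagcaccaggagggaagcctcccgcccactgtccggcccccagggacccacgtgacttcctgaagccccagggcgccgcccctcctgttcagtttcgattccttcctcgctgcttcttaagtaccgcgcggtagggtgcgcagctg
The Isg15 promoter held 3 overlapping matches, the first starting 78 bases before the start site. Ifit1 held 2, starting 104 and 85 bases before it, and Ifit3 held 2, starting 156 and 122 bases before it. Neither the windows of Ifit2 nor that of Trim25 held these letters. Those of Oasl2 and Isg20, which rose and are not shown, did not hold them either.

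Promoter windows were available for 25 of the 34 members, and were not used for Dhx58, Usp18, Mx1, Mx2, Parp14, Ifi27l2a, Oas2, Zbp1 and Rtp4. An ISRE core was found in 12 of the 25 genes, which is 48.0%, against 3.99% of all 27025 genes with a window (3.44% of 32851 windows). The 12 were Bst2, Ddx58, Eif2ak2, Ifih1, Ifit1, Ifit3, Ifitm3, Isg15, Oas1a, Oas3, Rsad2 and Trim30a. Their 20 matches began between 156 bases before and 33 bases after the start site. Of the members that rose, Adar, Cmpk2, Ifi35, Ifi44, Ifitm1, Isg20, Oasl1, Oasl2, Samd9l, Sp100 and Xaf1 held none in their windows. Ifit2 and Trim25, which did not pass, held none either. The GAS letters TTCNNNGAA, which read the same on both strands, were found in 8 of the 25, against 9.55% of all genes. In Bst2 and Ifitm3 GAS and ISRE matches overlapped. The kappa-B letters, which are GGGA, any base and TTTCC, or their reverse complement, were found in 0 of the 25 genes, against 0.466% of all genes. At so low a share, a count of 0 among 25 genes cannot show whether the members differ from other genes. Looser forms of the motif were not searched. A match in these windows is a description of letters and does not show that a factor binds.

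**Figure D2:**
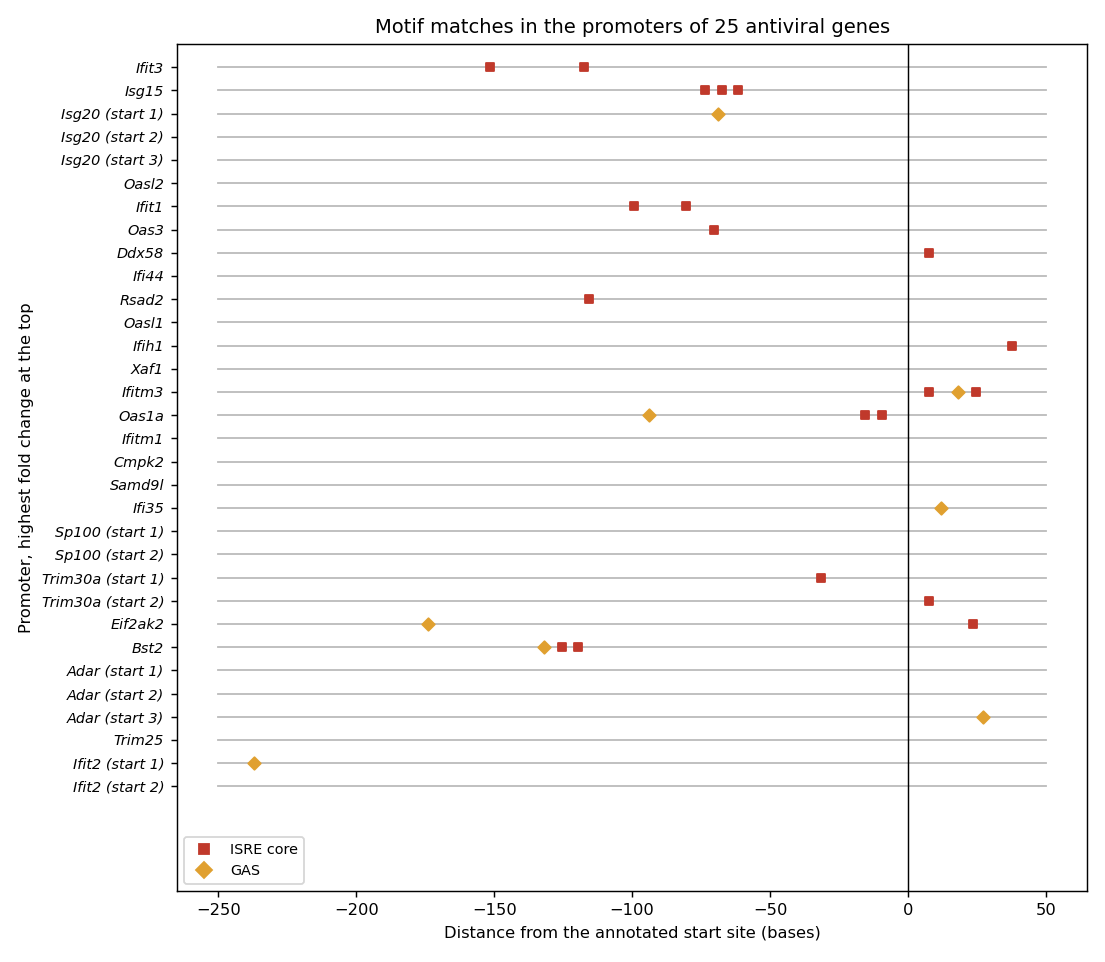
Positions of ISRE core matches (squares) and GAS matches (diamonds) in 250 bases before to 50 bases after each annotated start of 25 antiviral genes, ordered from the highest fold change at the top. The 20 ISRE matches fall in 12 genes, from Ifit3 at the top to Bst2. Genes without an ISRE match occur along the whole order, among them Isg20 and Oasl2 near the top and Adar, Trim25 and Ifit2 at the bottom. Most matches lie before the start site.

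The enzymes that act on nucleotides or RNA rose, 3 of 3. Isg20, an exonuclease that degrades single-stranded RNA, had 77.3 and 81.4 CPM in caNIK HSPC, against 12.3 and 15.2 CPM in control HSPC, a log2 fold change of 2.53 ± 0.19 (edgeR adjusted p = 0.00041). Rsad2 encodes viperin, which makes a chain-terminating nucleotide from CTP. It stood at 31.2 and 21.4 CPM in caNIK and 7.37 and 7.54 CPM in control, a log2 fold change of 1.82 ± 0.28 (adjusted p = 0.0061). Its neighbour on chromosome 12, Cmpk2, supplies CTP as a nucleotide kinase and had 54.2 and 58.5 CPM in caNIK against 18.5 and 27.9 CPM in control (1.28 ± 0.23, adjusted p = 0.011). Cmpk2 had the wider spread between control libraries, and Rsad2 the wider spread between caNIK libraries.

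Of 6 genes for Mx proteins and membrane-bound effectors, 5 rose. Ifitm3 and Ifitm1, neighbours on chromosome 7 whose products stop virus envelopes from fusing with cell membranes, were the members most abundant for their length in both groups. Ifitm3 was at 332 CPM per kb in caNIK and 109 CPM per kb in control, and Ifitm1 at 186 CPM per kb in caNIK and 76.0 CPM per kb in control. In CPM, Ifitm3 read 224.8 and 224.7 in the caNIK libraries against 84.0 and 64.3 in the control libraries, so the groups were apart and the caNIK libraries nearly equal (1.60 ± 0.18, edgeR adjusted p = 0.0016). Ifitm1 averaged 204 ± 86.2 CPM in caNIK and 83.2 ± 18.5 CPM in control (SD, n = 2). Its log2 fold change of 1.29 ± 0.31 (adjusted p = 0.028) was 0.78 without caNIK replicate 1, and the call was lost (adjusted p = 0.051). Rtp4, a chaperone of membrane receptors with known antiviral activity, had 69.5 and 70.9 CPM in caNIK against 25.2 and 18.8 CPM in control (1.68 ± 0.20, adjusted p = 0.0021). Bst2 encodes tetherin, which holds budding virus at the cell surface. It ranked next to them for its length in both groups and rose by 0.62 ± 0.17 (adjusted p = 0.041), a call lost without any one of the 4 libraries (adjusted p from 0.069 without caNIK replicate 2 to 0.29 without control replicate 2; 0.090 without caNIK replicate 1 and 0.087 without control replicate 1). With all libraries the Bst2 call was lost under upper-quartile factors (adjusted p = 0.067) and library totals (adjusted p = 0.069).

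Mx1 and Mx2 encode dynamin-like GTPases that trap viral ribonucleoprotein. RefSeq lists both as transcribed pseudogenes in its C57BL/6J assembly, and the strain used here is not given. Mx1 had 25.6 and 11.2 CPM in caNIK HSPC against 2.59 and 3.62 CPM in control HSPC, a log2 fold change of 2.56 ± 0.48 (edgeR adjusted p = 0.012). Mx2 stood at 9.02 and 3.13 CPM in caNIK and 2.44 and 2.60 CPM in control, with caNIK replicate 2 barely above the control libraries. Its log2 fold change of 1.27 ± 0.59 did not pass (adjusted p = 0.18). It passed without caNIK replicate 2 (1.82, adjusted p = 0.046) and was 0.32 without caNIK replicate 1.

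Of the 8 remaining members 7 rose. Parp14, an ADP-ribosyltransferase, had 349 and 304 CPM in caNIK HSPC against 82.2 and 62.2 CPM in control HSPC, a log2 fold change of 2.18 ± 0.19 (edgeR adjusted p = 0.00072). Ifi44 stood at 30.7 and 12.3 CPM in caNIK and 6.48 and 4.77 CPM in control (1.94 ± 0.47, adjusted p = 0.029). Without caNIK replicate 1 its log2 fold change was 1.14 and the call was lost (adjusted p = 0.095), as it was with limma-voom on all 4 libraries (1.79, adjusted p = 0.062). Xaf1, a partner of the apoptosis inhibitor XIAP, had 32.9 and 25.3 CPM in caNIK against 10.01 and 8.82 CPM in control (1.63 ± 0.25, adjusted p = 0.0059). Samd9l, known to limit the growth of blood progenitors, rose by 1.28 ± 0.21, and Ifi35 by 1.24 ± 0.17 (adjusted p = 0.0075 and 0.0035). Sp100, a nuclear body protein, and Trim30a, a ligase, rose by 1.12 ± 0.25 and 1.07 ± 0.25 (adjusted p = 0.021 and 0.025). Trim30a lost the call without caNIK replicate 1 (0.71, adjusted p = 0.052). Ifi27l2a was at 15.0 and 5.59 CPM in caNIK and 5.91 and 3.11 CPM in control. The groups overlapped and it did not pass (1.19 ± 0.57, adjusted p = 0.19); its log2 fold change was 0.32 without caNIK replicate 1.

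**Figure D3:**
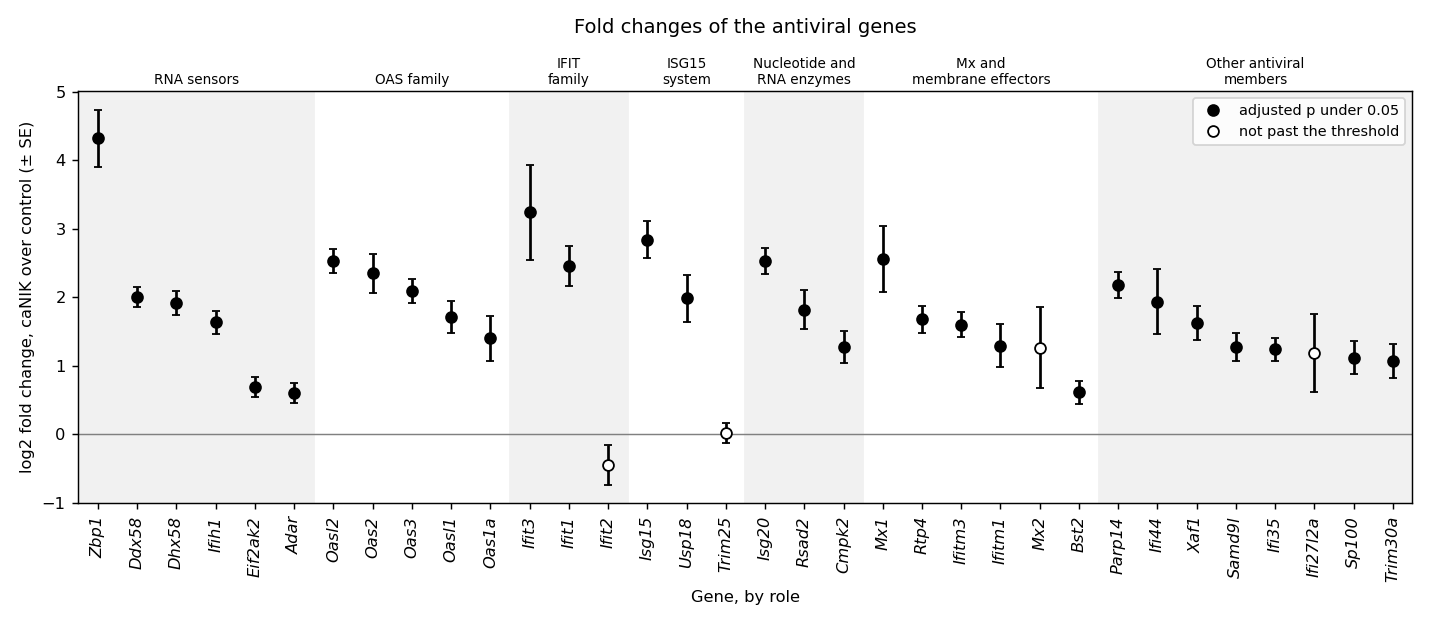
Log2 fold change of caNIK over control with its standard error for each of the 34 genes, by role; filled points passed at an edgeR adjusted p under 0.05 and open points did not. Of the points, 30 are filled and above 0, Zbp1 stands highest at 4.32, and Ifit2 is the open point below 0.

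The 2 caNIK libraries were not alike in these genes. In 28 of the 34, caNIK replicate 1 was above caNIK replicate 2, with a median log2 ratio of 0.30 (of CPM + 0.5, as for the other ratios here), against 52.9% of all tested genes and a median of 0.031. The ratio was 2-fold or more in 5 genes, Ifit3 (1.48), Mx2 (1.39), Ifi27l2a (1.35), Ifi44 (1.28) and Mx1 (1.15). The sensor genes Ddx58 (-0.10) and Ifih1 (-0.02), and Ifitm3 (0.00) and Rtp4 (-0.03), were level. In control HSPC replicate 1 was also above replicate 2 in 28 of the 34 genes, with a median log2 ratio of 0.26, against 49.0% of all genes. On that scale no member reached a 2-fold difference there, whereas in CPM alone Zbp1 did, at 3.42 and 1.62 CPM.

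**Figure D4:**
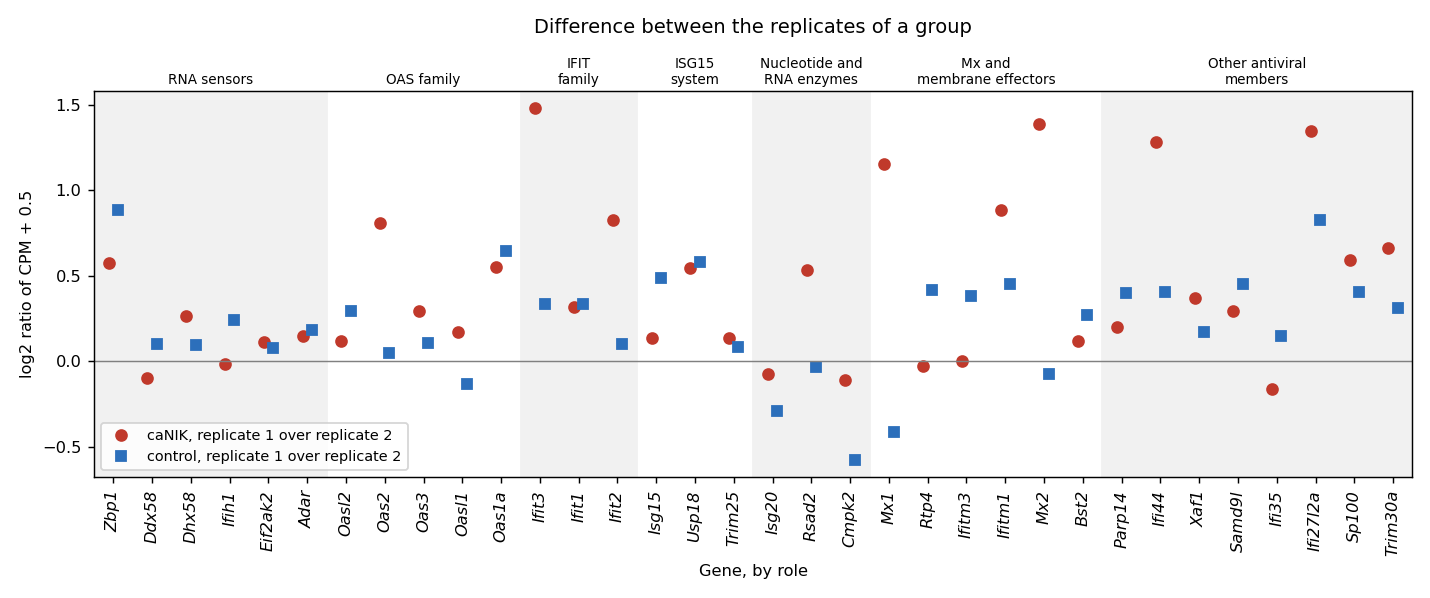
Log2 ratio of replicate 1 over replicate 2 (CPM + 0.5) for the 34 genes, with caNIK as red circles and control as blue squares. Most points of both kinds lie above 0, and the 5 genes above 1 are all caNIK points.

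Signal of some other cell types, mainly mast cells, neutrophils and erythroid cells, moved with the groups. In caNIK the mast cell sum was higher in replicate 1, as were the HSPC, dendritic cell, B cell, T cell and natural killer sums. The neutrophil, erythroid and monocyte sums were higher in caNIK replicate 2. In control the mast cell sum was nearly level, at 42.7 CPM in replicate 1 and 44.7 CPM in replicate 2. The summed B cell and T cell markers differed more between replicate numbers than between groups. Over all tested genes 13.8% were higher in caNIK and 8.21% lower. Of 7 tested plasmacytoid dendritic cell markers, 2 rose, Ly6d and Bst2, and Bst2 is itself 1 of the 34 genes. The list summed to 391 and 229 CPM in caNIK against 211 and 188 CPM in control. Siglech, a defining marker, was at 6.98 and 1.40 CPM in caNIK and 1.30 and 0.597 CPM in control. Klk1 had too few reads to be tested, with 0 in both caNIK libraries and 7 and 0 reads in control. Natural killer markers summed to 71.7 and 23.3 CPM in caNIK against 39.2 and 31.8 CPM in control, with 1 of 5 higher, Ncr1. Mast cell markers (4 of 5 higher) summed to 1419 and 767 CPM in caNIK against 42.7 and 44.7 CPM in control, neutrophil markers (5 of 6 higher) to 225 and 316 CPM in caNIK against 29.6 and 41.7 CPM in control, and erythroid markers (3 of 6 higher) to 1211 and 1888 CPM in caNIK against 277 and 561 CPM in control. Monocyte and macrophage markers (1 of 7 higher) summed to 130 and 152 CPM in caNIK against 54.4 and 100.1 CPM in control. Conventional dendritic cell markers had 3 higher (Zbtb46, Xcr1 and Itgax) and 1 lower (Flt3) of 5. Their sum of 176 and 110 CPM in caNIK and 605 and 489 CPM in control was mostly Flt3. Flt3 alone had 113 and 58.3 CPM in caNIK against 593 and 472 CPM in control, so the sum does not show the markers that rose. Cd209a, not tested, was listed at 0 in both caNIK libraries and had 8 and 11 reads in control. B cell markers (1 of 5 lower, Pax5) summed to 68.1 and 46.0 CPM in caNIK and 65.3 and 47.4 CPM in control, and T cell markers to 138 and 60.7 CPM in caNIK and 105 and 50.2 CPM in control. The part of these cells in the antiviral values was not tested.

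Interferon transcripts themselves were scarce. Of 21 interferon ligand genes, 17 were listed at 0 in all 4 libraries, Ifnb1 among them, which allows up to 0.161 CPM in a caNIK library and 0.156 CPM in a control library (3 counts; counting error only). The gene of interferon gamma, Ifng, was the 1 ligand with enough reads to be tested. It stood at 10.5 and 2.70 CPM in caNIK and 3.06 and 0.469 CPM in control, and did not pass (log2 fold change 1.92 ± 0.97, edgeR adjusted p = 0.21); it passed without control replicate 1 (3.78, adjusted p = 0.0022). Both groups had more Ifng in replicate 1, as they did of the antiviral genes in most cases. The summed T cell and natural killer markers were also higher in replicate 1 of both groups. In caNIK the Gbp and Irg GTPase genes, given below, went the other way, with a median log2 ratio of replicate 1 over replicate 2 of -0.14. In control that median was 0.54. Whether Ifng and these genes vary together was not tested.

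Among the 6 receptor genes 2 rose and 1 fell, where 13.8% of all tested genes were higher in caNIK and 8.21% lower. Ifnlr1, the receptor chain for type III interferon, had 277 and 791 reads in caNIK against 0 and 3 in control, or 14.9 and 38.1 CPM in caNIK against 0 and 0.128 CPM in control. The ratio of CPM was 387, with a 95% interval of 132 to 1880 that covers counting error only and not the spread of the caNIK libraries. The gene passed, with a fitted log2 fold change of 8.46 ± 0.87 (edgeR adjusted p = 0.0012), whose size depends on the prior count. It was 7.61 without caNIK replicate 2, 7.61 without control replicate 1 and 12.02 without control replicate 2, where the remaining control library is at 0. Its partner chain Il10rb was at 47.0 and 50.6 CPM in caNIK and 64.2 and 48.0 CPM in control. Ifngr2, of the interferon gamma receptor, rose by 0.96 ± 0.22 (adjusted p = 0.023), and Ifnar2, of the type I receptor, fell to 75.5 and 65.4 CPM in caNIK, against 113 and 104 CPM in control (-0.62 ± 0.16, adjusted p = 0.033). Ifngr2 lost the call without caNIK replicate 2 (adjusted p = 0.077) and without control replicate 2 (0.087). Ifnar2 lost it without caNIK replicate 2 (0.069), control replicate 1 (0.17) or control replicate 2 (0.088). Ifnar1 and Ifngr1 did not pass (0.10 ± 0.17 and 0.08 ± 0.17).

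Downstream of the receptors 5 of 6 transducers rose. Stat2 stood at 128 and 104 CPM in caNIK and 49.7 and 40.9 CPM in control, and Irf9 at 112 and 98.2 CPM in caNIK and 59.7 and 52.9 CPM in control. Stat2 rose by 1.36 ± 0.18 and Irf9 by 0.90 ± 0.16 on the log2 scale (edgeR adjusted p = 0.0036 and 0.0099). The kinase gene Jak2 rose by 1.34 ± 0.15 (adjusted p = 0.0016), whereas Jak1 was at 264 ± 17.9 CPM in caNIK and 275 ± 13.0 CPM in control (SD, n = 2) and did not pass. Of 8 interferon regulatory factor genes 4 rose. Irf7, which amplifies interferon production, had 145 and 115 CPM in caNIK against 21.0 and 15.9 CPM in control (2.82 ± 0.22, adjusted p = 0.00048), and Irf1 rose by 1.54 ± 0.19 (adjusted p = 0.0027). Irf3, the factor activated first after sensing, was at 71.7 ± 1.11 CPM in caNIK and 69.2 ± 3.90 CPM in control, and did not pass.

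Among 10 adaptors and kinases of nucleic acid sensing 3 rose, against 13.8% of all tested genes. They were Tlr9, a DNA receptor of endosomes (2.85 ± 0.49), Ikbke, a kinase of IRF3 (1.08 ± 0.19), and Mavs, the adaptor of RIG-I and MDA5 (0.82 ± 0.16). Their edgeR adjusted p-values were 0.009, 0.0099 and 0.013. Mavs lost the call without control replicate 1 (adjusted p = 0.075) or control replicate 2 (0.055). The list of 11 feedback inhibitors had 3 that rose, against the same share of all tested genes. Of these, Socs1 and Socs3, which block JAK kinases, rose by 2.60 ± 0.36 and 2.56 ± 0.39 (edgeR adjusted p = 0.0039 and 0.0058). The other was Irf2bp2, which lost the call when any library was left out (adjusted p from 0.066 to 0.43), under upper-quartile factors (0.053) and library totals (0.060), and with a filter of 1 CPM in 2 libraries (0.051).

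Further interferon-responsive genes are given for scale. Of 41 tested genes in a list of other interferon-stimulated genes, which overlaps the lists above (Stat2, Irf7 and Irf9 among others), 26 rose, with a median log2 fold change of 1.13. All 16 tested Gbp and Irg GTPase genes rose, with a median of 3.34, among them Gbp8 (5.64 ± 0.33) and Gbp5 (3.40 ± 0.21; edgeR adjusted p = 0.0002 and 0.00022). These GTPases attack the vacuoles of pathogens and are known to respond to interferon gamma in particular. Whether their changes differ from those of the 34 antiviral genes was not tested. Of 7 further genes of the Ifit, Ifitm and Ifi27 families 3 rose, with Ifi27 at 1.76 ± 0.18 (adjusted p = 0.0012), and Ifitm7 fell to 0.161 and 0.193 CPM in caNIK, against 1.81 and 1.83 CPM in control (adjusted p = 0.022). That fall was lost without caNIK replicate 1 (adjusted p = 0.099), caNIK replicate 2 (0.11) or control replicate 2 (0.0504). All 8 non-canonical NF-kB components listed rose, Nfkb2 by 5.05 ± 0.22 and Relb by 4.53 ± 0.21 (adjusted p = 8.2e-05 and 9.5e-05).

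**Figure D5:**
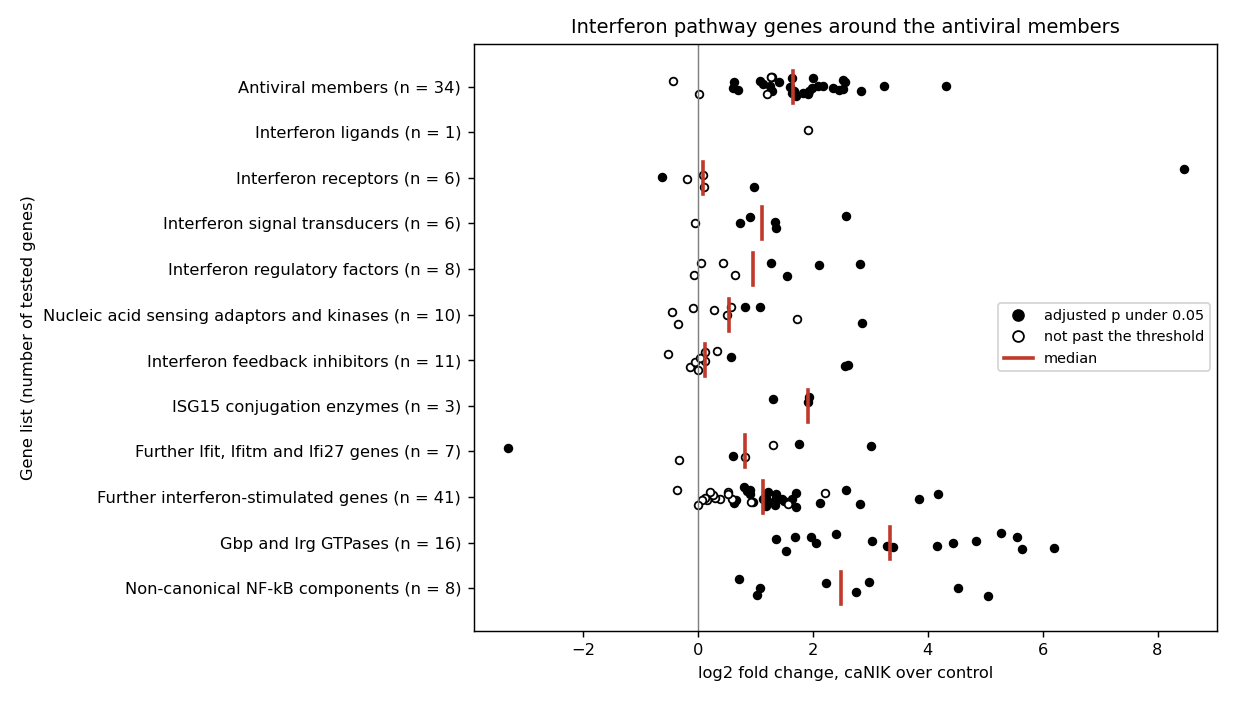
Log2 fold change of caNIK over control for tested genes of the antiviral set and of 11 related lists, 1 point a gene; filled points passed at an edgeR adjusted p under 0.05 and red lines are list medians. The antiviral genes centre on 1.66, the interferon receptors on 0.09 with Ifnlr1 far to the right, and the Gbp and Irg GTPases on 3.34.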

How the data were processed

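RNA-seq counts of 2 caNIK and 2 control HSPC libraries were used. The authors deposited raw read counts per gene symbol, per the file headers; TopHat2 2.1.0, featureCounts 1.5.0, DESeq2 1.10.1, FastQC and mm9 are listed, with no role, in the submitters' processing notes. The sources used here do not give the annotation, strand setting or treatment of multi-mapped reads, so reads of near-identical copies (Ifit, Ifitm, Oas, Gbp, Trim30 and Ifi27 families) and of overlapping or antisense genes cannot be told apart.

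Counts were tested in R 4.3.3 with edgeR 4.0.16: filterByExpr by group (14191 genes kept), TMM factors, glmQLFit and glmQLFTest with group as the only term, and Benjamini-Hochberg adjustment over all genes. SE is the log2 fold change over the root of F. Levels per kb use union exon lengths from a GENCODE annotation of GRCm38, another build than mm9, and are approximate. In 5 simulations with 200 changed genes (median of 13271 tested), edgeR called 7.6% of those changed 1.5-fold, 48.0% of those changed 2-fold and 91.6% of those changed 4-fold. Of the calls, 5.69% were false. The changed genes were drawn only from genes with ample control reads, unlike Ifit3, and spread was set by expression level alone. In the data 3129 genes were called, so the simulated rates need not hold there. Alternatives used DESeq2 1.42.0 and limma 3.58.1, other scalings and filters, a replicate block and left-out libraries.

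The members, lists and tests were chosen with earlier results of these data known. Named were the members with the largest changes in each role, those that did not pass, the 2 smallest p of each list, and Map3k14, Stat2, Irf9, Irf7 and Ifnb1. Some items that this rule or the lists name are not reported here. Other members were named for completeness; genes of other lists beyond that rule (such as Ifnar2, Ifng, Jak1, Irf3, Mavs, Herc6 and markers) were chosen after their values were seen. RefSeq symbols of GRCm38.p6 matched all 34 members; promoter sequences are from RefSeq.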

Additional observations from a re-analysis of the deposited data

How the results depend on the processing

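The count of risen antiviral members stayed between 22 and 31 of 34 over 13 alternatives: 30 with DESeq2, 29 with limma-voom, 28 with upper-quartile factors or library totals, and 22 in the test against a 1.5-fold change. Of the 30 members called, 21 passed under every alternative; the other 9 were Adar, Bst2, Eif2ak2, Oas1a, Ifit3, Ifitm1, Ifi44, Sp100 and Trim30a. Leaving out single libraries gave 0 to 1 fallen members, 0 to 1 fallen genes over the related lists (2 with all libraries, 1 in the test against 1.5-fold, and 3, with Pias2 added, under DESeq2, upper-quartile factors, library totals, the filter of 1 CPM in 2 libraries and the replicate block), and a member median of 1.57 to 1.78. Over all genes 1165 fell, against 458 in the test against 1.5-fold. With the replicate number as a block 1766 fell and 31 members rose, Ifi27l2a being added (adjusted p = 0.047); Ifng, the interferon gamma gene, passed as well (2.09, adjusted p = 0.014). The labels do not say what a number shares; deviations of same-numbered libraries correlated at 0.21 over genes, in 2 pairs. The longer ISRE letters, with a C after the second GAAA, were found in 10 of 25 members, against 0.944% of all genes. Counts were lowest for Ifit3 (14 reads in a control library), which limits its precision.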
